A study of Mus musculus with 8 samples.

Results

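Cytosolic ribosomal protein genes were followed through the maturation of mouse liver. The members were taken by symbol, as the Rpl and Rps genes with their stalk genes Rplp0, Rplp1 and Rplp2 and with Rpsa, leaving out the Rps6k kinases. They were 84 of the 22059 genes counted in all 8 samples, with 51 genes named for the large and 33 for the small subunit. All 84 passed the filter on low counts, as did 17081 genes in total.

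The samples were whole livers of wild-type FVB mice (FVB/NJ in the study's methods), untreated, at embryonic day 18 (E18), postnatal day 14 (P14), postnatal day 28 (P28) and adult, at 3 months of age. Each stage had 2 samples, all from poly(A)-selected RNA sequenced as read pairs. The labels do not say whether a sample is 1 liver or a pool, nor from which litter, so that the p-values measure only the spread between these samples. In whole liver, a change in the share of a cell type and a change in RNA per cell cannot be told apart.

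The cytosolic ribosome reads messenger RNA in the cytoplasm and is built of a small and a large subunit, each a scaffold of ribosomal RNA covered with proteins. Nearly every ribosomal protein is present in a single copy per ribosome, and the proteins are made together, since their messengers begin with a run of pyrimidines (the TOP sequence) through which the mTOR pathway controls their translation. Their messengers have been copied back into the genome many times, so that most of the genes have processed pseudogenes. A few have an intact paralogue with its own promoter, often used in a particular tissue.

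The starts of the genes are shown because the TOP sequence lies there. Each line below is 40 bases of the RefSeq promoter table (GRCm38.p6), 20 before and 20 from the annotated start, with the longest run of C and T in capitals. The first 4 belong to members that fell from E18 to adult. The run spans the annotated start in Rpl7a, Rpl27a and Rps9, and ends before it in Rpl4.
Rpl7a, chr2:26910787-26910826, plus strand: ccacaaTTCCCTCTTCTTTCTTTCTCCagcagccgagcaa
Rpl27a, chr7:109519175-109519214, plus strand: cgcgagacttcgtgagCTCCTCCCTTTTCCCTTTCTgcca
Rpl4, chr9:64173367-64173406, plus strand: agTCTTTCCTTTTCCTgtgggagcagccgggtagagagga
Rps9, chr7:3704021-3704060, plus strand: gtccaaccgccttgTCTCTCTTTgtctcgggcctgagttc
The next 5 belong to the members that rose. Rpl35a is shown at the one of its 3 annotated starts that has a long run, and Rps27l and Rpl3l at their first start.
Rpl35a, chr16:33056462-33056501, plus strand: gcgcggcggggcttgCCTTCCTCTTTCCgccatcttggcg
Rps27l, chr9:66946066-66946105, plus strand: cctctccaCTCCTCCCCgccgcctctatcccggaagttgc
Rpl36al, chr12:69184048-69184087, minus strand: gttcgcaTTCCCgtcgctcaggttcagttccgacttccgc
Rpl7l1, chr17:46782637-46782676, minus strand: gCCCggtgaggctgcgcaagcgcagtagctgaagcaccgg
Rpl3l, chr17:24727806-24727845, plus strand: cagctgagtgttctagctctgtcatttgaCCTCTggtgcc
The last 3 belong to members with large decreases, of which Rps3a and Rpl39l have no run of 8.
Rpl31, chr1:39367831-39367870, plus strand: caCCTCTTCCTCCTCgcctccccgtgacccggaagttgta
Rps3a, chr3:86142649-86142688, minus strand: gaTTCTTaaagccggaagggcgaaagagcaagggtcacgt
Rpl39l, chr16:10170208-10170247, plus strand: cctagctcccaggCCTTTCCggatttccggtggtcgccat

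Of the 84 members, 63 had an entry in the promoter table. A run of at least 8 C or T in the 40 bases was found at a start of 30 of them (47.6%), against 18.4% of the 27025 genes of the table. The letters CTTTC, which overlap such runs and were searched on the transcribed strand only, were found in 19 (30.2%), against 6.4% of all genes. Among the 30 members with the run, 25 were lower and 2 higher in adult than at E18 (43.8% and 39.5% of all genes tested), with a median log2 fold change of -1.23. Among the 33 without it, 28 were lower and 3 higher, with a median of -1.56. Such runs were thus more frequent at these starts than over all genes, and most members fell with or without one. An annotated start need not be the first base of the messenger in liver.

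Sequencing depth was between 68154675 and 106055723 reads on genes per sample. Hepatocyte markers (9 genes, Alb among them, all detected at every stage) held 8.57 to 9.18% of the reads at E18, 22.7% in both samples at P14, 15.0 to 16.0% at P28 and 8.23 to 9.97% in adult. By edgeR all 9 were higher in adult than at E18 after TMM scaling, which sets libraries level over most genes (median log2 fold change 2.55), and 7 were higher and 1 lower with library size alone. The 15 erythroid markers held 2.22 to 2.74% at E18, 0.0403 to 0.0433% at P14, 0.0116 to 0.0132% at P28, with Hba-x at 0, and 0.00996 to 0.0103% in adult, with Hbb-y and Hba-x at 0. All 15 were lower in adult than at E18 by edgeR on both scales. The 4 proliferation markers held 0.300 to 0.328% at E18 and 0.000336 to 0.000344% in adult, and the 8 myeloid markers 0.165 to 0.187% and 0.000123 to 0.000350%. The fetal liver is a site of blood formation. From E18 to adult all genes of the erythroid, proliferation and myeloid lists were lower (43.8% of all genes tested). So were 4 of 4 endothelial, 3 of 4 macrophage, 2 of 3 B cell and 4 of 5 exocrine pancreas markers. The proliferation and myeloid time courses differed from that of the ribosomal protein genes. Between P28 and adult all 4 proliferation markers were lower (13.2% of all genes), and 0 ribosomal protein genes were. The myeloid median log2 fold change was -2.33 from E18 to P14 and -5.76 from P14 to P28. The erythroid median was -6.74 from E18 to P14, -0.765 from P14 to P28 and -0.647 from P28 to adult. The ribosomal protein genes had medians of -0.924, -0.476 and 0.06 in these intervals. Macrophage (4 of 5 listed genes in the files), endothelial, B cell and exocrine pancreas markers each held at most 0.0781% of the reads in any sample. The part of any of these marker lists in the results was not tested.

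The summed ribosomal protein genes were high before birth and low at all later stages. They held 0.552 and 0.542% of the reads on genes at E18, then 0.155 and 0.145% at P14, then 0.124 and 0.139% at P28 and, in adult, 0.149 and 0.135%. Both E18 samples lay above all 6 postnatal samples, the P14 samples lay above those of P28, and adult overlapped P28 and P14. The mean share at E18 was 3.65 times that at P14 and 3.86 times that in adult. The stages differed in an exact permutation test over all 105 ways to form 4 pairs (two-sided, p = 0.0476, smallest possible 0.00952). The postnatal stages alone gave an exact permutation p of 0.333 over 15 ways, where the smallest possible is 0.0667.

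The size of the difference depends on the scale. Without the 100 genes with the most reads, the E18 mean share was 3.28 times the adult mean (exact permutation p = 0.0286). After TMM scaling, the summed members were 3455 and 3523 normalized counts (CPM, reads scaled to a common library size) at E18, then 1789 and 1701 at P14, then 1461 and 1624 at P28 and, in adult, 1745 and 1520. The E18 mean was then 2.14 times the adult mean, and the exact permutation test over the 4 stages gave p = 0.0571. On this scale, as on that of the share of summed RPKM (3.98 times, exact permutation p = 0.0667), the call over the 4 stages was lost. Both E18 samples remained above the 6 others. The postnatal stages alone gave an exact permutation p of 0.4 on the first and 0.467 on the second of these scales, against 0.333 for the share of reads. With the E18 pair apart, p over the 4 stages moved only with the order of the postnatal samples. It does not measure the size or certainty of the E18 difference.

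**Figure D1:**
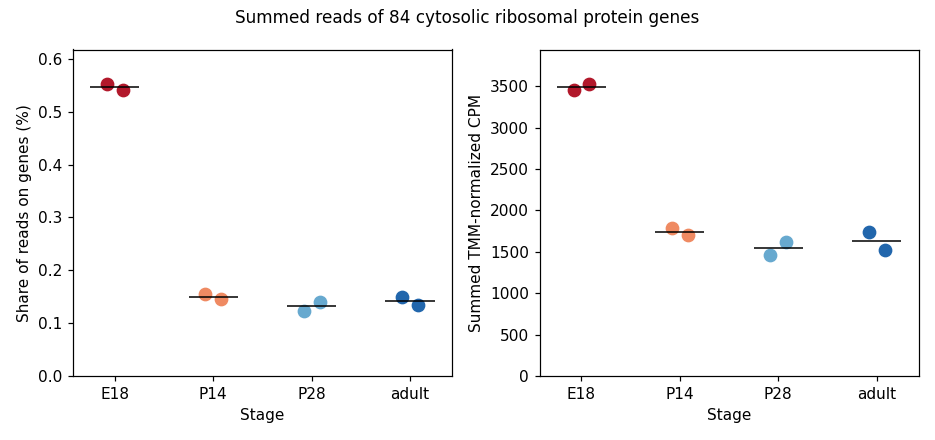
Summed reads of the 84 ribosomal protein genes in each of 8 samples (points) with the stage mean (line), as a percentage of reads on genes (left) and as TMM-normalized CPM (right). Both E18 samples stand above all postnatal samples, at 0.552 and 0.542% and at 3455 and 3523 CPM.

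Gene by gene, the fall was spread over nearly the whole family. Between E18 and P14, 71 members were called lower and 4 higher by the edgeR quasi-likelihood test at a Benjamini-Hochberg false discovery rate (FDR) below 0.1, while 39.3% of all genes tested were called lower and 38.2% higher. The 4 were Rpl35a, Rpl36al, Rps27l and Rpl7l1, and with library size alone 0 were called higher. The median log2 fold change of the members was -0.92, against -0.03 for all genes. Between P14 and P28, 47 members were lower and 6 higher, with 28.6% and 25.2% of all genes, and the medians were -0.48 and -0.05. Without the first P14 sample 29 members were lower, and without the first P28 sample 31. The 6 were Rpl3l, Rpl15, Rpl23a, Rpl35a, Rpl36al and Rps27l, of which 3 were called without the second P14 sample (Rpl23a, Rpl35a and Rps27l).

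Between P28 and adult, 2 members were called higher and 0 lower, with 7.94% and 13.2% of all genes, and the members' median was 0.06. The 2 were Rpl35a and Rpl10. Without the first P28 or the first adult sample 0 were called higher, and 1, Rpl35a, without either P14 sample, the second P28 or the second adult sample. At an unadjusted p under 0.05, 4 were higher and 0 lower, and DESeq2 called 2 higher and 0 lower. limma on log2 RPKM called 5 higher and 1 lower, the latter Rpl32. Without the first adult sample 1 member was called lower, Rps20, which is named after its value was seen. The 82 members not called in this interval are not thereby shown to be level.

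Over the whole course, from E18 to adult, 73 members were lower and 5 higher, with 43.8% and 39.5% of all genes. The median was -1.33 for the members and -0.11 for all genes. A fall of over 3-fold was called for 33 members (23.8% of all genes) and a rise of over 3-fold for 2 (16.8% of all genes). Among the 73, the fold decrease ran from 1.25 to 6.49 with Rpl39l left out, with a median of 2.95. The large subunit had 42 lower and 4 higher (median -1.30), and the small subunit 31 lower and 1 higher (median -1.56).

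The scaling sets the size of these values. With library size alone, the median of all genes moved from -0.03 to -0.90 between E18 and P14 and from -0.11 to -0.96 between E18 and adult, and the members' medians became -1.79 and -2.18. Members lower then numbered 81 and 80, and members higher 0 and 4, while 66.8% and 64.9% of all genes were lower and 18.6% and 22.1% higher on that scale. Going from one scale to the other shifts every gene of a comparison by nearly the same amount. The difference between the median of the members and that of all genes was therefore bound to stay similar, and is no check of the scaling. Changes below are on the TMM scale, and a member whose direction turns with the scaling is named as such.

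**Figure D2:**
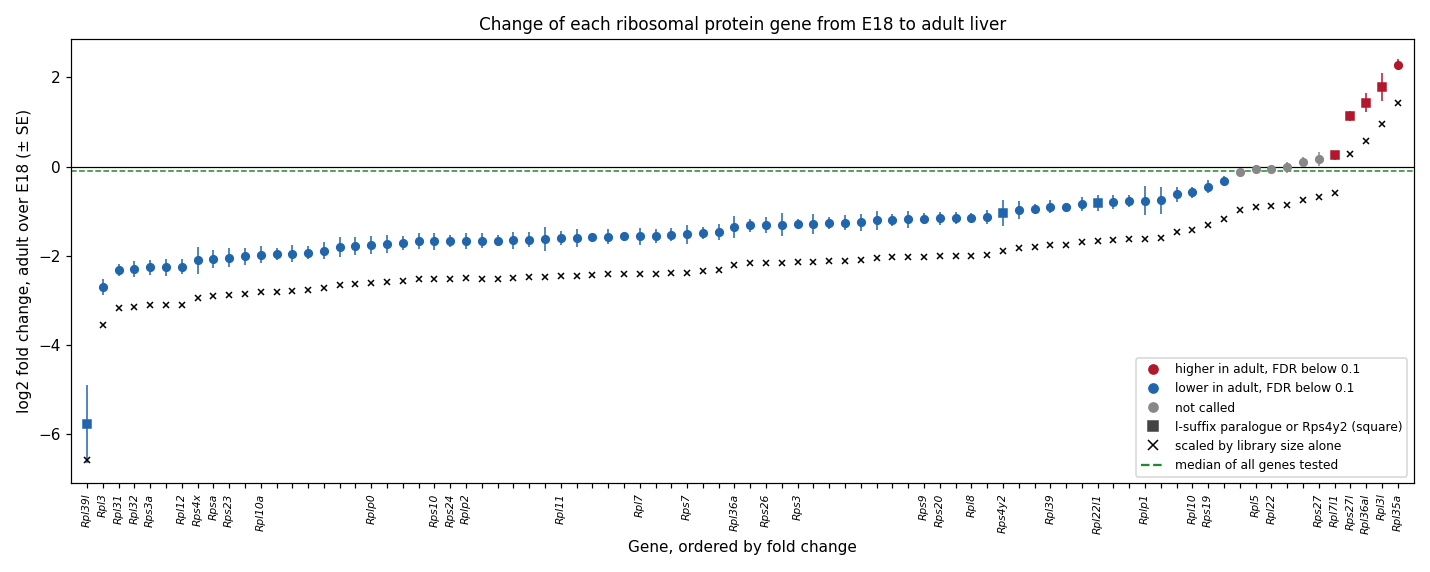
Log2 fold change of each of the 84 genes, adult over E18 (names are given for some), with its standard error from edgeR on 2 samples a stage. Red is higher and blue lower at FDR below 0.1, grey not called, squares mark the 7 paralogues, crosses the value scaled by library size alone and the dashed line the median of all genes (-0.11). Nearly all members lie below 0, with Rpl35a at 2.29 and Rpl39l at -5.77 at the ends, and Rpl7l1 is the only red point whose cross lies below 0.

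Levels within the family were very uneven. In normalized RPKM, which is reads per kilobase of the gene's transcript, scaled to the library size after TMM, the members with the highest levels included Rpl8, Rps9, Rps20 and Rps3. Rpl8, a large-subunit protein near the peptidyl transferase centre, was at 983 and 1019, 494 and 471, 382 and 433, and 475 and 431 at E18, P14, P28 and adult. The E18 samples stood above all others, and P28 and adult overlapped.

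From E18 to adult, Rpl8 fell by 1.14 ± 0.11 (SE) on the log2 scale (edgeR adjusted p = 9.9e-06). Rps9, in the body of the small subunit, went from 320.2 and 358 to 170 and 133 normalized RPKM, with a log2 fold change of -1.17 ± 0.13 (edgeR adjusted p = 2.6e-05). Rps20, in the head of the small subunit, went from 238.5 and 258 to 127 and 94.3, and Rps3, which lines the mRNA entry, from 205.0 and 208 to 92.4 and 76.4. In these 4 genes both E18 samples lay above every postnatal sample. The 5 members with the most reads, Rpl8 and Rps3 among them, held between 66.6 and 72.6% of the family's reads, so that the summed share is mostly theirs. Without them the E18 mean was 3.33 times the adult mean (exact permutation p = 0.019).

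These levels should not be read as the make-up of the ribosome. The median member had a mean deposited RPKM of 5.76, and 62 of 84 were under 10. How reads that fit a gene and its pseudogenes were counted is not given in the sources used here. The study's supplement lists uniquely mapped reads for each library, but the numbers listed lie far below the reads on genes counted here. It does not say whether only uniquely mapped reads were counted per gene. Reads shared with a near-identical copy may have been lost or split, so that the level of any member with copies is uncertain. Each member's transcript was therefore matched to the GENCODE M21 transcripts, and pseudogenes with at least 90% identity over 100 bases were counted. The 10 highest members had a median of 1.5 pseudogenes (0 to 19), and the other 74 a median of 10.5 (0 to 89). The 13 members with at most 2 pseudogenes had a median mean deposited RPKM of 54.4, and the 71 with more had 5.06. Across all 84 the order of levels followed the number of copies only weakly (Spearman's rho -0.145, across genes of the same libraries, which are not independent). Rpl3l and Rpl39l have 0 copies and the lowest levels. The part of copies in the levels was not tested.

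**Figure D3:**
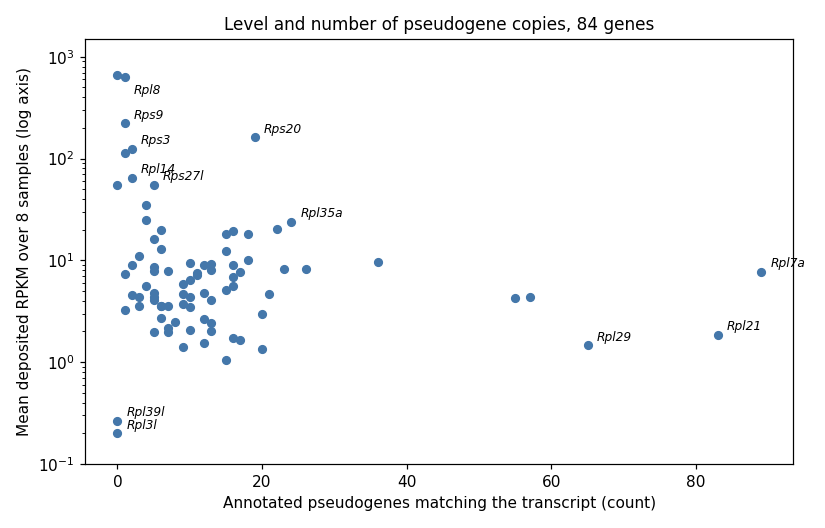
Mean deposited RPKM over 8 samples (log axis) against the number of annotated pseudogenes that match the transcript, for each of 84 ribosomal protein genes (points). Rpl8, near the top, has 1, Rpl7a has 89 at the right, and Rpl39l and Rpl3l, at the bottom, have 0.

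The fall itself was there with and without copies. Of the 13 members with at most 2 pseudogenes, a set chosen after the levels were seen, 11 were lower and 2 higher from E18 to adult, with a median log2 fold change of -1.26. Of the 71 with more, 62 were lower and 3 higher, with a median of -1.47. Between P14 and P28 the first set had 5 lower and a median of -0.17, and the second 42 lower and a median of -0.50. The log2 fold change from E18 to adult had a rank correlation of 0.0138 with the number of pseudogenes across the 84 genes, which share their libraries.

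Rpl3, Rpl31, Rpl32 and Rps3a fell the most, next to the barely detected Rpl39l. Rpl3, a core large-subunit protein that reaches toward the peptidyl transferase centre, was at 17.5 and 15.6 normalized RPKM at E18, then 6.28 and 4.57 at P14, then 2.34 and 2.49 at P28 and, in adult, 2.44 and 2.66. The stages did not overlap up to P28, and P28 and adult did. The log2 fold change from E18 to adult was -2.70 ± 0.17 (edgeR adjusted p = 5.6e-07), that is 6.49-fold lower.

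Rpl31, which lies at the exit of the nascent chain tunnel, went from 15.2 and 16.3 at E18 to 5.45 and 5.35 at P14, then 3.40 and 3.96 at P28 and, in adult, 3.35 and 3.005, a log2 fold change of -2.31 ± 0.13 (edgeR adjusted p = 2.6e-07). Rpl32, of the large subunit, went from 9.12 and 8.29 to 3.42 and 3.09, 2.33 and 2.44, and 1.91 and 1.64, with -2.29 ± 0.18 (edgeR adjusted p = 2.4e-06). Rps3a, of the small subunit, went from 6.92 and 6.97 to 2.22 and 2.40, 1.27 and 1.51, and 1.48 and 1.42, with -2.26 ± 0.16 (edgeR adjusted p = 1.2e-06). In each of these genes the E18 samples were apart from all others, and the P14 samples from those of P28. Rpl3, Rpl31 and Rpl32 overlap Syngr1, Tbc1d8 and Cand2 on the opposite strand (GENCODE M21, GRCm38), and whether reads were counted by strand is not given in the sources used here.

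The largest called changes of the single intervals up to P28 fell mostly on other genes. Between E18 and P14 these were Rpl39l, then Rpsa, whose protein joins the small subunit and is also known as a laminin receptor, and Rps23, at the decoding site. Rpsa went from 2.52 and 2.62 to 0.879 and 0.633 normalized RPKM, a log2 fold change of -1.76 ± 0.19, and Rps23 from 4.57 and 4.46 to 1.59 and 1.19, with -1.70 ± 0.21 (edgeR adjusted p = 3.5e-05 and 7.3e-05). Neither gene was called in the later intervals, where the log2 fold changes lay between -0.19 and -0.12.

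Between P14 and P28 the largest were Rps4x, Rpl12 and Rpl10a. Rps4x, the X-linked gene of a small-subunit protein, went from 2.73 and 1.67 to 0.728 and 1.05, with a log2 fold change of -1.31 ± 0.31. Rpl12, at the base of the stalk, went from 18.1 and 13.1 to 6.21 and 6.51, with -1.29 ± 0.17, and Rpl10a, at the L1 stalk, from 22.1 and 14.9 to 8.63 and 7.70, with -1.18 ± 0.20 (edgeR adjusted p = 0.0086, 0.0004 and 0.0014). The first P14 sample was the higher of its pair in all 3, and no P28 sample reached either P14 sample.

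The stalk proteins, which recruit translation factors, fell with the rest. Rplp0, its base, was at 4.77 and 5.05 normalized RPKM at E18 and 1.26 and 1.64 in adult, with a log2 fold change of -1.75 ± 0.21. Rplp2 was at 12.5 and 12.3 at E18 and 3.70 and 4.13 in adult, with -1.66 ± 0.18 (edgeR adjusted p = 4.2e-05 and 2.4e-05). Rplp1 was at 2.22 and 1.82 against 1.36 and 1.03, with -0.76 ± 0.33 and an edgeR adjusted p of 0.057, which became 0.11 in DESeq2, 0.20 without the first E18 sample and 0.26 without the second adult sample. The groups did not overlap in any of the 3, and the fall of Rplp1 was the least certain.

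Rpl35a rose while the family fell. It encodes a large-subunit protein needed for the maturation of large-subunit RNA, and loss of a copy causes Diamond-Blackfan anaemia in people. It was at 9.52 and 10.6 normalized RPKM at E18, then 19.4 and 17.9 at P14, then 32.8 and 35.2 at P28 and, in adult, 53.7 and 44.8. No stage overlapped another, and the order of the stages was that of age. The log2 fold change was 0.89 ± 0.12, 0.87 ± 0.12 and 0.53 ± 0.12 over the 3 intervals, and 2.29 ± 0.12 from E18 to adult (edgeR adjusted p = 0.00015, 0.00052, 0.019 and 2e-07).

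With library size alone the change of Rpl35a between E18 and P14 was 0.02, and it was 1.44 from E18 to adult. Its change between P28 and adult lost the call without the first P28 sample (edgeR adjusted p = 0.13) or the first adult sample (0.14). The gene (GRCm38 chr16:33056453-33060189) has 24 matching pseudogenes, and the non-coding Gm17106 overlaps it on the opposite strand. Its share of the family's reads was 0.172% at E18 and 1.80% in adult.

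The other 4 members that rose from E18 to adult were paralogues of a second ribosomal protein gene. Without the 7 paralogues (Rpl3l, Rpl7l1, Rpl22l1, Rpl36al, Rpl39l, Rps27l and Rps4y2) 77 members were left, of which 70 were lower and 1 higher, with a median log2 fold change of -1.49. The 7 themselves had 4 higher and 3 lower, and a median of 0.25. This list was chosen with earlier results of these data known.

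Rps27l, a paralogue of Rps27 that is induced by p53, was at 34.1 and 39.9 normalized RPKM at E18, then 51.7 and 47.4 at P14, then 81.6 and 75.2 at P28 and, in adult, 83.1 and 79.8. It rose up to P28, after which the stages overlapped, and the log2 fold change from E18 to adult was 1.14 ± 0.11 (edgeR adjusted p = 8.6e-06). Rps27 itself was at 3.47 and 3.57 at E18, then 3.58 and 3.69 at P14, then 3.28 and 3.26 at P28 and, in adult, 4.04 and 3.85, and was not called (0.16 ± 0.16, edgeR adjusted p = 0.35). With library size alone Rps27 turned to -0.69 and Rps27l kept a rise of 0.29, while between E18 and P14 Rps27l turned from 0.42 to -0.45. Rps27 has 10 pseudogenes and Rps27l has 5, so that their relative level is uncertain.

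Rpl36al, the autosomal counterpart of the X-linked Rpl36a, was at 5.17 and 5.53 at E18, then 8.29 and 7.22 at P14, then 10.3 and 15.0 at P28 and, in adult, 16.7 and 12.3, with a log2 fold change of 1.44 ± 0.22 (edgeR adjusted p = 0.00021). Rpl36a was at 6.04 and 5.62 at E18, then 3.01 and 2.78 at P14, then 1.89 and 2.26 at P28 and, in adult, 2.88 and 1.73, with -1.35 ± 0.25 (edgeR adjusted p = 0.00077). The E18 samples were the lowest for the first and the highest for the second. On library size alone Rpl36al still rose over the whole course, by 0.58, but had -0.33 between E18 and P14. Rpl36al shares its strand with the annotated gene Gm49383. Rpl36a has 6 pseudogenes and Rpl36al has 2. Other genes match 90.7% of the Rpl36a transcript and 66.7% of the Rpl36al transcript at 97% identity or more. Their relative level is therefore uncertain, and the part of such copies in their changes was not tested.

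Rpl3l, the heart and skeletal muscle form of Rpl3, stayed near the limit, with 24 and 20 reads at E18 and 34 and 39 in adult. Its normalized RPKM went from 0.108 and 0.102 to 0.366 and 0.368, a log2 fold change of 1.79 ± 0.32 (edgeR adjusted p = 0.00065), against the fall of Rpl3. The level in adult was below that of Rpl3 in both samples. Rpl7l1, which takes part in making the large subunit, was at 16.7 and 19.1 at E18, then 25.4 and 22.5 at P14, then 18.1 and 19.6 at P28 and, in adult, 20.9 and 21.8. Its change of 0.25 ± 0.10 (edgeR adjusted p = 0.044) turned to -0.59 with library size alone and to 0.00 with upper-quartile scaling, and its partner Rpl7 fell by 1.56 ± 0.19 on the log2 scale.

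The remaining paralogues fell. Rpl39l, known for its part in the ribosome of male germ cells, had 45 and 87 reads at E18, then 7 and 6 at P14, then 4 and 2 at P28 and, in adult, 1 and 0. With 132 reads against 1, the E18 level was 63.0 times that in adult, with an exact 95% interval of 11.1 to 2510 for counting error only. The fitted log2 fold change of -5.77 ± 0.87 (edgeR adjusted p = 0.00021) depends on the small number added to counts. Rpl39l passed the filter on low counts only through its E18 samples, the stage where it is high. Its adjusted p is therefore no support for the fall. It is counted among the 73 members lower, the 33 lower over 3-fold and the 11 lower with few pseudogenes. Rpl39 went from 16.2 and 14.9 to 8.16 and 8.49 normalized RPKM, with -0.90 ± 0.15 (edgeR adjusted p = 0.00039), so that both genes of the pair fell.

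Rpl22l1 went from 7.70 and 7.98 to 5.08 and 3.85 normalized RPKM, with a log2 fold change of -0.81 ± 0.18 (edgeR adjusted p = 0.0027). Rpl22 was at 25.9 and 27.9 at E18 and 26.6 and 25.6 in adult, and was not called (-0.04 ± 0.09). Here the paralogue fell and the first gene was at about the same level in both stages on the TMM scale, while it became -0.89 with library size alone. Rps4x and Rps4y2, the latter listed in RefSeq as Rps4l, fell by 2.10 ± 0.31 and 1.03 ± 0.29. Rpl10 fell by 0.58 ± 0.13. Rpl10l was not among the symbols counted.

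**Figure D4:**
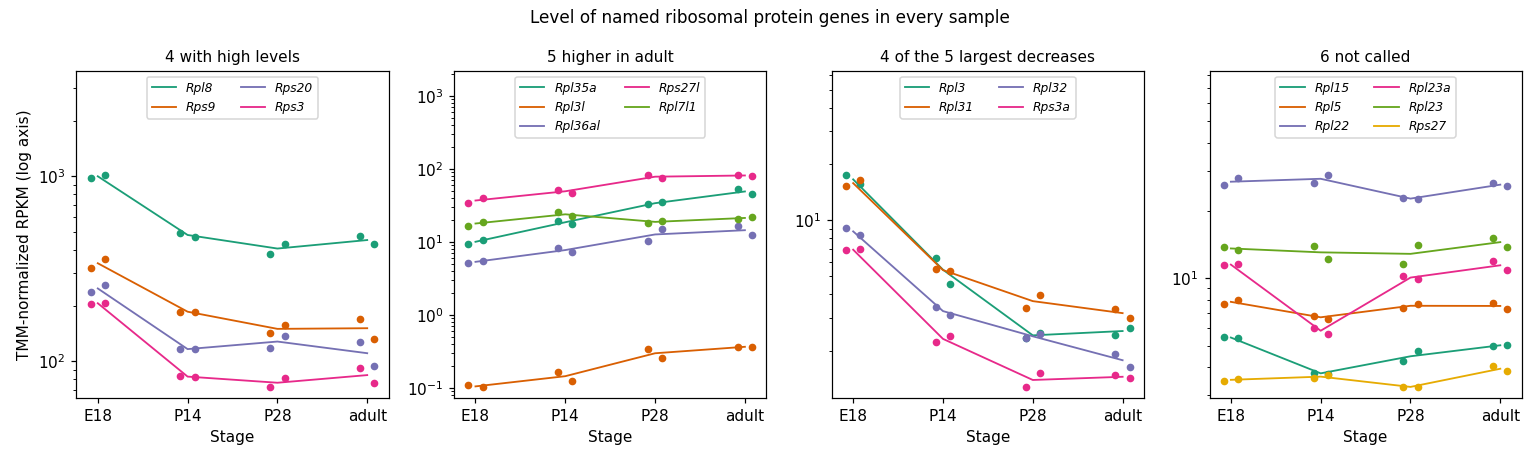
TMM-normalized RPKM (log axis, own range in each panel) in each sample (points) and stage mean (lines) for 4 of the members with the highest levels, the 5 that were higher in adult than at E18, 4 of the 5 with the largest decrease (Rpl39l is left out, since 1 adult sample is at 0) and the 6 that were not called. Rpl35a climbs at every stage from 9.52 and 10.6 to 53.7 and 44.8, and Rpl23a dips at P14.

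Rpl5, Rpl15, Rpl22, Rpl23, Rpl23a and Rps27 were not called between E18 and adult, with log2 fold changes between -0.11 and 0.16. All 6 were lower by 0.69 to 0.96 with library size alone. In the order named, they have 11, 21, 4, 6, 36 and 10 matching pseudogenes. Rpl5, Rpl15 and Rpl23a also overlap Fam69a, Nkiras1 and Tlcd1 on the opposite strand. The part of copies and overlaps in their levels and changes was not tested. Rpl23a, at the tunnel exit where the signal recognition particle docks, was at 11.4 and 11.5 normalized RPKM at E18, then 6.02 and 5.63 at P14, then 10.2 and 9.87 at P28 and, in adult, 11.9 and 10.9. It thus fell at P14 and returned, with log2 fold changes of -0.98 ± 0.13 and 0.79 ± 0.13 (edgeR adjusted p = 9.8e-05 and 0.0012). Rpl15, in the core of the large subunit, showed the same course at a smaller size, with -0.53 ± 0.11 and 0.25 ± 0.11 (edgeR adjusted p = 0.0021 and 0.097). Rpl10, at the subunit interface, fell between P14 and P28 from 14.6 and 13.6 to 7.64 and 8.53 and was 11.4 and 9.76 in adult, and the last step of 0.39 ± 0.13 had an edgeR adjusted p of 0.079, which was 0.34 without the first P28 sample, 0.14 without the second, 0.36 without the first adult sample and 0.10 without the second.

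Members mutated in Diamond-Blackfan anaemia, a failure of red cell formation, did not all move the same way. From E18 to adult Rpl35a was higher, Rpl5 was not called, and Rps7, Rps10, Rps19, Rps24, Rps26 and Rpl11 were lower. Rps19, the gene most often mutated, was at 10.97 and 11.1 normalized RPKM at E18, then 9.55 and 7.65 at P14, then 8.19 and 7.76 at P28 and, in adult, 8.01 and 8.14, with a log2 fold change of -0.45 ± 0.14 (edgeR adjusted p = 0.016). Rpl5, which binds the 5S RNA together with Rpl11, was at 7.66 and 8.01 at E18 and 7.76 and 7.26 in adult, with -0.06 ± 0.10. Rpl11 went from 7.16 and 7.13 to 2.40 and 2.31, with -1.60 ± 0.16 (edgeR adjusted p = 1.6e-05). Rpl5 has 11 matching pseudogenes and Rpl11 has 10, and the part of these copies in the 2 changes was not tested. Rps7, Rps10, Rps24 and Rps26 had log2 fold changes between -1.31 and -1.67.

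Relative to the family itself, the members did not fall evenly. When each gene was compared with the summed reads of the 84, a measure that does not depend on how libraries are scaled to each other, 16 members were higher and 39 lower in adult than at E18 by edgeR at FDR below 0.1, with 62.3% and 22.5% of all genes on this scale. The 16 were the 5 that rose, the 6 not called and Rps6, Rps19, Rps25, Rpl10 and Rpl36. The largest values were 3.38 for Rpl35a, 2.89 for Rpl3l, 2.53 for Rpl36al and 2.24 for Rps27l, and the lowest beside Rpl39l was -1.59 for Rpl3. Without the 5 members with the most reads in the sum, 14 were higher and 52 lower. Rpl8, Rps9, Rps20 and Rps3 had values between -0.20 and -0.05 and were not called. At E18 they held 24.7, 6.83, 3.57 and 11.1% of the summed reads. A gene that makes up much of the sum is held near 0 by the measure itself, so these values do not show that they follow the family.

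Other genes of translation were set beside the family, on lists chosen with earlier results of these data known. Pseudogene copies were not counted for the genes of these lists, so that their levels are uncertain. The part of copies in their changes was not tested. Of all genes tested, 43.8% were lower and 39.5% higher from E18 to adult, and 64.9% and 22.1% with library size alone. Of 30 genes of ribosome assembly, 24 were lower and 3 higher from E18 to adult, with a median log2 fold change of -0.67. Nop56 and Nop58, core proteins of the RNA-methylating box C/D particles, fell by 2.53 ± 0.18 and 1.98 ± 0.18, and Dkc1, the pseudouridine synthase, by 2.15 ± 0.11. Tsr1, Pno1 and Nop10 rose by 0.86 ± 0.10, 0.85 ± 0.10 and 0.61 ± 0.10, but with library size alone 0 genes of the list were called higher and none exceeded 0.009. Of 13 genes of RNA polymerase I and its factors, 6 were lower, a share near that of all genes, and 2 higher (median -0.31), and 13 and 0 with library size alone.

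Of 7 other genes with TOP messengers or tied to the ribosome, 6 were lower (median -0.67). Gnb2l1, which encodes the ribosome-bound scaffold RACK1, went from 899 and 848 to 402 and 371 normalized RPKM, with -1.18 ± 0.12 (edgeR adjusted p = 1.4e-05). Npm1 and Pabpc1 fell by 2.50 ± 0.11 and 2.33 ± 0.09. Of 5 elongation factor genes 3 were lower: Eef1b2, which reloads eEF1A with GTP, went from 248.6 and 246 to 127 and 106 (-1.09 ± 0.13), while Eef2, the translocase, was at 163 and 135 against 147 and 145 (-0.03 ± 0.12). Eef1a1 was at only 3.91 and 3.34 at E18 against 3.805 and 4.01 in adult, and was not called (0.11 ± 0.14).

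Of 57 initiation factor genes 29 were lower and 17 higher (median -0.23), where 43.8% and 39.5% of all genes were, and 51 and 2 with library size alone, where 64.9% and 22.1% of all genes were. Of 76 mitochondrial ribosomal protein genes 5 were lower and 51 higher, with a median of 0.35 that became -0.50 with library size alone, where 50 were lower and 6 higher. On either scale their median lay above that of all genes, and that of the cytosolic members below it. A change of scale cannot alter this order, since it shifts all genes nearly alike. Of 10 genes of the Myc and mTOR pathways, 3 were lower (Myc, Mycn and Larp1, which binds TOP messengers) and 6 higher, with a median of 0.22 that became -0.63 with library size alone, where 7 were lower and 0 higher. Larp1 fell by 0.93 ± 0.09, and Mtor and Rptor rose by 0.59 ± 0.14 and 0.82 ± 0.09 on the TMM scale, and were not called higher with library size alone.

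**Figure D5:**
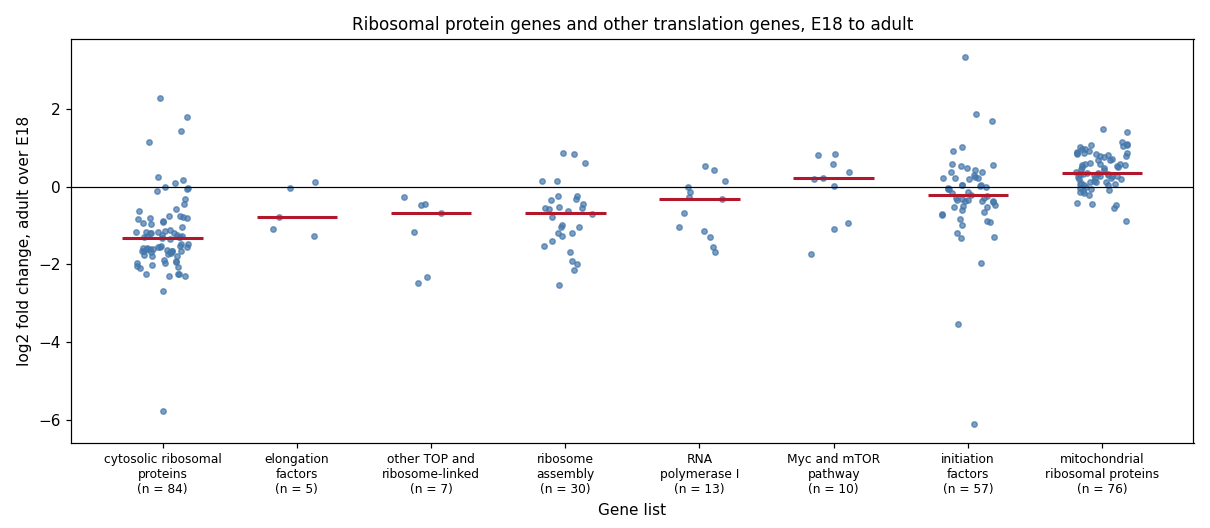
Log2 fold change from E18 to adult of each gene (points) in 8 lists of translation genes, with the list median (red line) and the number of genes tested. The median is -1.33 for the 84 cytosolic ribosomal protein genes and 0.35 for the 76 mitochondrial ones. The horizontal spread of points has no meaning.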

How the data were processed

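The deposited values were raw counts of reads per gene, made by the authors without normalization, and RPKM, which the authors computed as reads per kilobase of transcript scaled to mapped reads. The submitters' processing notes name the genome build mm9. The aligner and its settings are not given in the sources used here. RNA was isolated with Trizol per the labels and with an RNeasy kit per the study's methods, and sequenced as 100 base read pairs. Dividing count by RPKM gave a whole transcript length, to within 0.00151 bases, for all 22059 genes.

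Counts of all 8 samples were filtered with filterByExpr (17081 genes kept), scaled by TMM and fitted with 1 coefficient per stage by glmQLFit and glmQLFTest of edgeR 4.0.16, and p-values were adjusted over all genes tested (Benjamini-Hochberg). A gene was called at an adjusted p below 0.1, and changes over 3-fold are given beside it. The standard error is the log2 fold change over the square root of F. Normalized RPKM were computed from counts, recovered lengths and TMM library sizes. For shares within the family the library size was the members' summed reads. DESeq2 1.42.0, limma 3.58.1 on log2(RPKM + 0.1) and other scalings were alternatives. With 2 samples a group, an exact permutation test of a pair of stages cannot go below 0.333, so that single values were tested over all stages.

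The scripts were tested on simulated data. Transcripts were matched with BLAST 2.17.0 to GENCODE M21 (GRCm38), whose coordinates are printed, and promoters are of RefSeq GRCm38.p6. Members named were taken from the 5 of highest mean deposited RPKM, the 5 largest called increases and decreases from E18 to adult, the 3 largest called changes of each interval, paralogue pairs, stalk genes and Rpsa, Diamond-Blackfan genes, and members near 0. Others named, such as Rpl23a, Rpl15, Rpl4, Rpl7a and Rpl27a, were chosen after their values were seen. Some items are not reported here. The members and lists were chosen with earlier results of these data known.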

Additional observations from a re-analysis of the deposited data

How the results depend on the processing

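Members called higher from E18 to P14 numbered 4, but 0 with library size alone or with limma on log2 RPKM, 0 over 3-fold, and 1 without the 7 paralogues or among members with at most 2 pseudogenes, a set added after seeing the data. Members lower in that interval were 5 over 3-fold and 11 among members with few pseudogenes. From P14 to P28, members higher were 0 over 3-fold, 3 without paralogues, 2 with few pseudogenes and 3 to 6 with a sample left out; members lower were 0 over 3-fold, 5 with few pseudogenes and 29 to 48 with a sample left out. From P28 to adult, members higher were 1 without a filter on low counts, with upper-quartile scaling, with only these 2 stages fitted, with the replicate block or at FDR below 0.05, 5 with limma, 0 over 3-fold or with few pseudogenes, and 0 to 2 with a sample left out. Members lower were 1 with limma and 0 to 1 with a sample left out. From E18 to adult, members higher were 2 over 3-fold or with few pseudogenes and 1 without paralogues, and members lower 33 over 3-fold and 11 with few pseudogenes. These smaller sets hold fewer genes, and the cause of the other moves was not tested.

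The ratio of the summed members at E18 and in adult was 2.14 as TMM-normalized CPM and 3.98 as a share of summed RPKM, with exact permutation p of 0.0571 and 0.0667, no longer below 0.05. These p-values moved with the order of the postnatal samples, while both E18 samples stayed above all others. Of the 39 named members' changes from E18 to adult, 642 of the values under 17 alternatives kept direction and call, 7 lost the call, 8 gained it and 5 reversed: Rpl7l1 with library size alone (-0.59), upper-quartile scaling (-0.003) and limma (-0.62), and Rps27 with library size alone (-0.69) and limma (-0.69).

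Samples share replicate numbers across stages, but same-numbered samples did not deviate together: r over 10300 genes averaged -0.102 over 6 pairs of stages (-0.373 to 0.127). No pairing by number was thus seen, but 2 samples a stage cannot show that there is none. With the replicate block, 72 members were lower and 4 higher from E18 to P14, 44 and 5 from P14 to P28, 0 and 1 from P28 to adult, and 73 and 5 from E18 to adult. Members with few reads, such as Rpl39l, Rpl3l and Rplp1, are limited by counting.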
